A study of Mus musculus with 17 samples.

Results

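Transcript levels of 8 genes that mark proximal or progenitor-type luminal cells of the prostate, or the surface of epithelial tumours, were followed in mouse prostate and prostate tumours by RNA sequencing. The genes were Psca, Ly6a, Krt4, Clu, Ppp1r1b, Pigr, Msln and Dmbt1. They were chosen by symbol, and each was listed once in every file, 8 of 13898 genes kept in the genotype groups and 8 of 39179 in the inducible model. The luminal epithelium of the mouse prostate holds distal cells that secrete most of the prostatic fluid and, near the urethra, proximal cells with less secretory output. The proximal cells carry Psca, Ly6a (Sca-1), Krt4, Clu, Ppp1r1b and Pigr at the RNA or protein level and can form new glandular tissue in transplantation assays. Msln is best known from mesothelium and from many carcinomas, which carry it at their surface, and Dmbt1 as a secreted glycoprotein of mucosal epithelia.

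All samples were frozen tissue of C57BL/6 mice. The Ctnnb1 group held 3 tumours with 1 Ctnnb1 allele lacking exon 3 (Ctnnb1pc(ex3)delta/+, about 12 months old). The combined group held 3 tumours in which the same allele was joined by a further engineered change (about 6 to 8 months old). Wild-type prostate (12 months old) gave 3 libraries. Beta-catenin, the product of Ctnnb1, is normally phosphorylated within the stretch encoded by exon 3 and then degraded, and the shortened protein escapes this. The driver of recombination in these groups is not given in the sources used here. An inducible model of the combined genotype, in which recombination depends on a tamoxifen-activated Cre, gave 3 libraries under androgen deprivation therapy (ADT) and 2 mock-treated libraries, all about 15 months old. Every mouse of the ADT and mock groups therefore carried the engineered alleles. Age and genotype cannot be told apart in the combined group. The labels do not say that the samples of a group came from separate animals, so p-values measure the spread between these samples, which may be technical.

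The values were gene counts scaled by the authors, without unit, and are called values below. Library totals of these values were 33903149 to 35120175 in the Ctnnb1 group, 32455483 to 34376245 in the combined group and 45675083 to 47248750 in wild type. They were 31583684 to 32791101 with ADT and 30591734 to 32054108 with mock treatment. The inducible model was scaled separately and was compared only within itself. Changes are differences of log2(value + 1), tested with limma's moderated test and adjusted by Benjamini-Hochberg over all genes of the comparison. A gene is called when the adjusted p is under 0.05. Scaling the 9 genotype libraries to equal totals instead would move the median of all genes by 0.49 in the Ctnnb1 group and by 0.50 in the combined group on the log2 scale. The share of calls that are higher would then be 78.9% and 81.9% in these groups, in place of 49.4% and 48.9%. In bulk tissue, fewer cells of a type and less RNA per cell cannot be told apart.

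A pair of sequences shows how alike Ly6a is to a neighbour, which bears on how far their reads can be counted apart. Ly6a lies on GRCm38 chromosome 15, 74994877 to 74998031, on the minus strand, in a cluster with other Ly6 genes, and the last 120 coding bases of it and of Ly6c1 are given 5′ to 3′ from GENCODE M21 transcripts. Capitals mark the 9 bases that differ.
Ly6a: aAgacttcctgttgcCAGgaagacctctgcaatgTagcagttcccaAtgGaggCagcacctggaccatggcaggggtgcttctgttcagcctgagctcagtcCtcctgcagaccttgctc
Ly6c1: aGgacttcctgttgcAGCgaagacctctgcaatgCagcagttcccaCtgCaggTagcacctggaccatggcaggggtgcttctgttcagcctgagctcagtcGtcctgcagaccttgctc
The longest run shared by these coding sequences was 48 bases, shorter than a read of 90 bases, so no whole read within this stretch is common to both. Of the 1311 windows of 90 bases along the Ly6a transcripts, 29 (2.21%) also occurred in Ly6c1 transcripts, none of them wholly within the stretch shown, and reads from these could be assigned to either gene.

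For the other members, 164 of 2985 such windows of Ppp1r1b (5.49%) lay in 1700003D09Rik as well. The use of strand in counting is not given in the sources used here, so these reads cannot be told apart. The share was 0.458% in Pigr and 0.5% in Msln, and no window was shared for Psca, Krt4, Clu and Dmbt1.

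The second sequence is the promoter window of Pigr, the member with the smallest p under ADT. It was the only 1 of 8 members found in the RefSeq promoter table. The window runs from 250 bases before to 50 bases after the gene's start (GRCm38.p6, chr1:130826434-130826733, plus strand), and capitals mark a match to AGAACA, the half-site bound by the androgen receptor.
Pigr: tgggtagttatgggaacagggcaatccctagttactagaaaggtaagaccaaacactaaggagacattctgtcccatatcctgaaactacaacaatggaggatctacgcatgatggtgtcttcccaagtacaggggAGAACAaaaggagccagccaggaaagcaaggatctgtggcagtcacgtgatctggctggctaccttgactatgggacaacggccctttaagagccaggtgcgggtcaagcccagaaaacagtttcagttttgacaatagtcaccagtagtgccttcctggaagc
The match begins at position 137 of the window, at -114 from the start. AGAACA or its reverse complement TGTTCT occurred in 19% of 32851 promoters, so the match is common. CTTTGAT (reverse complement ATCAAAG), a motif of the TCF partners of beta-catenin found in 3.73% of promoters, was not among the letters of this window.

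The Ctnnb1 group was compared with wild-type prostate to ask which of these markers differ when beta-catenin is stabilised. Msln, Clu and Ly6a were higher and Psca and Ppp1r1b were lower, while Krt4, Pigr and Dmbt1 were not called. These are 5 of 8 members, where limma called 8128 of 13898 genes, or 58.5%, so the count itself is near the background. The groups did not overlap for these 5 members, as for 71.5% of all genes. In the combined group against wild type, Dmbt1, Msln, Clu and Ly6a were higher and Psca was lower, 5 of 8 members, beside 57.9% of all genes called. The groups did not overlap for 6 of 8 members, these 5 and Ppp1r1b, beside 66.1% of all genes. The 8 genes thus did not share a direction, and of the 6 proximal luminal markers Ly6a and Clu stood opposite to Psca in both groups. Both comparisons used the same wild-type libraries and are not independent.

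**Figure D1:**
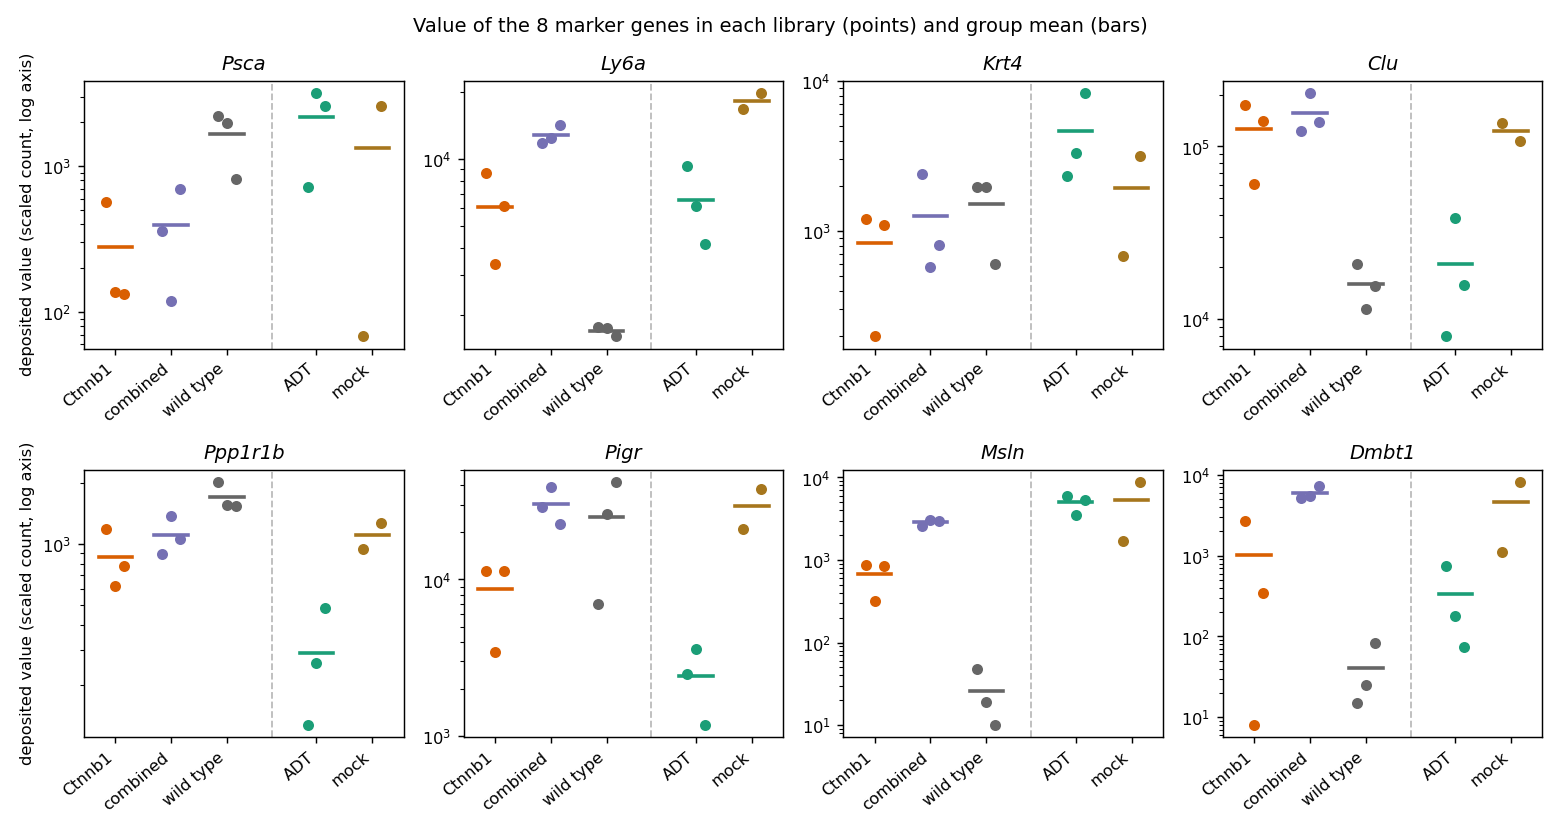
Deposited value (scaled count, log axis) of each of the 8 genes, with a point per library and a bar at the group mean. Libraries of the Ctnnb1 group, the combined group and wild type stand left of the dashed line and the separately scaled ADT and mock libraries right of it. Msln lies between 317 and 3047 in the tumour groups and between 10 and 48 in wild type, while the Krt4 points of these groups overlap.

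Psca, prostate stem cell antigen, is a small protein of the Ly6 family held at the surface by a glycosylphosphatidylinositol (GPI) anchor (chromosome 15, 74714839 to 74717069, plus strand). Its value was 567, 137 and 132 in the Ctnnb1 group, 361, 119 and 697 in the combined group and 2225, 1965 and 816 in wild type. Every tumour library was below every wild-type library, by a narrow margin between 697 in a combined library and 816 in a wild-type library.

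In the Ctnnb1 group Psca fell by 2.81 on the log2 scale (SE 0.77, adjusted p 0.0142 in limma). In the combined group it fell by 2.29 (SE 0.77, adjusted p 0.0324). The Ctnnb1 call was lost without wild-type replicate 1 (log2 change -2.54, adjusted p 0.0505 in limma) and without Ctnnb1 replicate 15 (-2.45, adjusted p 0.0508), and the change was -3.50 without Ctnnb1 replicate 13 (adjusted p 0.00684). The combined call was lost at changes close to the full one without wild-type replicate 1 (-2.02, adjusted p 0.0995 in limma), wild-type replicate 2 (-2.11, adjusted p 0.0927) or combined replicate 10 (-2.40, adjusted p 0.0598). It was lost at smaller changes without combined replicate 11 (-1.61, adjusted p 0.0961 in limma) and with equal totals (-1.78, adjusted p 0.0694).

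Ly6a, the stem cell antigen Sca-1, is another GPI-anchored Ly6 protein and is used to sort progenitor cells of prostate and blood. Its value was 8648, 3381 and 6182 in the Ctnnb1 group, 11863, 12487 and 14194 in the combined group and 1757, 1736 and 1597 in wild type. The 3 groups did not overlap, and the wild-type libraries lay closest together.

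The log2 change of Ly6a was 1.74 in the Ctnnb1 group (SE 0.29, adjusted p 0.00117 in limma) and 2.92 in the combined group (SE 0.29, adjusted p 9.27e-05). It was called in 18 of 18 alternative analyses in both comparisons. Ly6a is also made by endothelial cells, fibroblasts and T cells, so markers of these cells are given with it. In the Ctnnb1 group, 2 of 10 endothelial markers were higher and 1 was lower, with summed values of 6764 to 7154 against 5317 to 6837 in wild type. In the combined group 7 of 10 were higher, with sums of 7567 to 14237 against the same wild-type range. Beside these counts, 28.9% of all genes were called higher and 29.6% lower in the Ctnnb1 group. The shares were 28.3% and 29.5% in the combined group.

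Of 10 fibroblast and matrix markers, 0 were higher and 1 was lower in the Ctnnb1 group (sums 27564 to 36173, against 37642 to 43129 in wild type), and 7 were higher in the combined group (sums 50573 to 644275). Of 6 tested T and NK cell markers, 3 were higher in each group, with sums of 487 to 645 in the Ctnnb1 group, 294 to 1556 in the combined group and 207 to 235 in wild type. None of these markers was at 0 in any of the 9 libraries. Combined replicate 12 had the lowest fibroblast and endothelial sums of its group and the highest Ly6a value. The part of these cells in the Ly6a result was not tested.

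Msln encodes mesothelin, a GPI-anchored glycoprotein of mesothelium that many carcinomas carry (chromosome 17, 25748613 to 25754378, minus strand). Its value was 859, 317 and 840 in the Ctnnb1 group, 2589, 3047 and 2963 in the combined group and 48, 19 and 10 in wild type. No groups overlapped, and the combined libraries agreed within a narrow range.

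Msln rose by 4.79 on the log2 scale in the Ctnnb1 group (SE 0.55, adjusted p 2.14e-04 in limma) and by 7.02 in the combined group (SE 0.55, adjusted p 3.80e-05). Of all genes, 2.69% had a larger absolute change in the Ctnnb1 group and 0.41% in the combined group. Msln was called in 18 of 18 alternatives in both comparisons.

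Krt4 encodes a type II keratin of the inner layers of stratified mucosa and of proximal luminal cells (chromosome 15, 101918535 to 101924735, minus strand). Its value was 1211, 198 and 1101 in the Ctnnb1 group, 2383, 578 and 802 in the combined group and 1970, 1960 and 602 in wild type. All 3 groups overlapped and each held a library far from the others.

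The log2 change of Krt4 was -1.04 in the Ctnnb1 group (95% interval -2.94 to 0.86, adjusted p 0.303 in limma). It was -0.36 in the combined group (95% interval -2.26 to 1.54, adjusted p 0.729 in limma), and turned to 0.16 with equal totals. Krt13, the keratin that pairs with Krt4, was at 99, 1 and 12 in the Ctnnb1 group, 211, 20 and 72 in the combined group and 5, 4 and 4 in wild type. It rose in the combined group (log2 change 3.69, adjusted p 0.0445 in limma) and was not called in the Ctnnb1 group (adjusted p 0.406).

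Clu encodes clusterin, a secreted chaperone of misfolded proteins that the prostate makes in quantity after castration in rodents (chromosome 14, 65968483 to 65981547, plus strand). Its value was 174128, 60986 and 141334 in the Ctnnb1 group, 123592, 203626 and 138984 in the combined group and 20736, 11432 and 15431 in wild type. The lowest tumour library was above the highest wild-type library, and the tumour groups overlapped each other.

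The log2 change of Clu was 2.89 in the Ctnnb1 group (SE 0.41, adjusted p 5.35e-04 in limma) and 3.30 in the combined group (SE 0.41, adjusted p 2.78e-04), and 18 of 18 alternatives kept the call in each. Lrp2, a receptor that takes up clusterin, was at 1660, 206 and 1037 in the Ctnnb1 group, 988, 773 and 1289 in the combined group and 48, 4 and 45 in wild type. It rose by 4.98 (adjusted p 0.00316 in limma) in the Ctnnb1 group and by 5.47 (adjusted p 0.00196) in the combined group. Vldlr, another clusterin receptor, was lower in the Ctnnb1 group (log2 change -1.45, adjusted p 0.0245 in limma) and not called in the combined group (-0.09, adjusted p 0.879).

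Ppp1r1b encodes DARPP-32, which inhibits protein phosphatase 1 once protein kinase A has phosphorylated it (chromosome 11, 98348404 to 98357796, plus strand). Its value was 1187, 621 and 779 in the Ctnnb1 group, 896, 1375 and 1060 in the combined group and 2036, 1572 and 1543 in wild type. All tumour libraries were below all wild-type libraries, and the tumour groups overlapped.

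Ppp1r1b fell by 1.03 on the log2 scale in the Ctnnb1 group (SE 0.25, adjusted p 0.00778 in limma), a call lost with equal totals (-0.54, adjusted p 0.0774). In the combined group its log2 change was -0.64 (SE 0.25, adjusted p 0.0557 in limma), which passed the threshold when only the 6 libraries of these groups were fitted (adjusted p 0.0290). Leaving out combined replicate 11 (adjusted p 0.0352 in limma), Ctnnb1 replicate 13 (0.0233) or Ctnnb1 replicate 14 (0.0369) also gave a call. Adcy5, an adenylyl cyclase upstream of protein kinase A, was at 45, 53 and 39 in the Ctnnb1 group, 177, 280 and 88 in the combined group and 1357, 1339 and 1566 in wild type. It was lower in both groups (log2 changes -4.94 and -3.11, adjusted p 3.38e-05 and 2.29e-04 in limma).

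Pigr encodes the polymeric immunoglobulin receptor, which carries dimeric IgA across epithelium into secretions (chromosome 1, 130826684 to 130852249, plus strand). Its value was 11373, 3430 and 11291 in the Ctnnb1 group, 29033, 38894 and 22627 in the combined group and 6971, 26064 and 42036 in wild type. The tumour groups did not overlap each other, and both overlapped the wild-type group, whose libraries spread widely.

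The log2 change of Pigr was -1.37 in the Ctnnb1 group (95% interval -2.95 to 0.21, adjusted p 0.118 in limma) and 0.58 in the combined group (95% interval -0.999 to 2.16, adjusted p 0.492). Without wild-type replicate 1, the lowest wild-type library, Pigr was called lower in the Ctnnb1 group (log2 change -2.12, adjusted p 0.0157 in limma) and its change in the combined group was -0.17 (adjusted p 0.814). Igj, the joining chain of the IgA that Pigr binds, was at 165, 911 and 348 in the Ctnnb1 group, 1477, 640 and 955 in the combined group and 739, 730 and 437 in wild type. It was not called in either (adjusted p 0.309 and 0.366 in limma).

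Dmbt1 encodes a large mucosal glycoprotein that binds bacteria and surfactant protein D (chromosome 7, 131032053 to 131121630, plus strand). Its value was 2687, 8 and 342 in the Ctnnb1 group, 5237, 5538 and 7299 in the combined group and 15, 25 and 82 in wild type. The combined libraries were together and far above wild type, whereas the Ctnnb1 libraries ranged from below the lowest wild-type value to far above the highest.

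Dmbt1 rose by 7.52 on the log2 scale in the combined group (SE 1.74, adjusted p 0.00642 in limma), with a larger absolute change in 0.295% of genes and a call in 18 of 18 alternatives. In the Ctnnb1 group its log2 change was 2.64 (SE 1.74, adjusted p 0.221 in limma). Without Ctnnb1 replicate 14, the library at 8, it was 4.88 (adjusted p 0.00402 in limma), and without Ctnnb1 replicate 13, the library at 2687, it was 0.77 (adjusted p 0.664). The change in the combined group was 8.19 without wild-type replicate 3 (adjusted p 0.0129 in limma). Sftpd, surfactant protein D, was at 120, 28 and 90 in the Ctnnb1 group, 350, 104 and 113 in the combined group and 1, 0 and 1 in wild type, and was called higher in both (adjusted p 3.28e-04 and 1.20e-04 in limma).

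**Figure D2:**
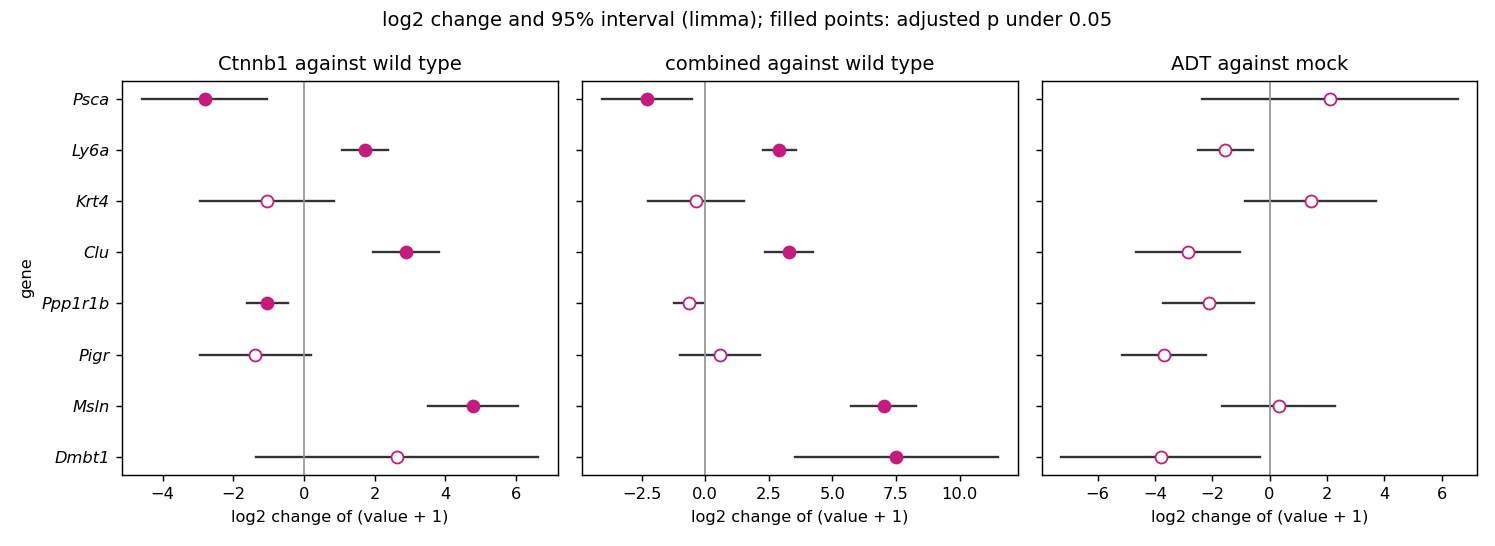
log2 change of (value + 1) of each gene with its 95% interval from limma, in the Ctnnb1 group against wild type, the combined group against wild type and ADT against mock, each panel with its own axis. Filled points are called at an adjusted p under 0.05, 5 of 8 in each of the first panels and 0 of 8 under ADT.

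Compared per length, as the mean value per kilobase of exons, Clu was the highest member in the Ctnnb1 group (36509) and in the combined group (45214), followed by Ly6a (5038 and 10662) and Pigr (2161 and 7499). In wild type Pigr was highest (6217), with Clu next (4616) and their libraries overlapping. Msln (8.38) and Dmbt1 (5.76) were the lowest members in wild type, again with overlapping libraries. In the combined group Msln (935) and Dmbt1 (854) overlapped in per-kilobase level and stood above Psca (456) and Ppp1r1b (379) in mean, Psca overlapping with Dmbt1 in its highest library.

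The spread between libraries was not even. Ctnnb1 replicate 13 was the highest of its group for 8 of 8 members and replicate 14 the lowest for 7 of 8, all but Psca. Replicate 14 deviated from its group's mean by -0.42 (Ppp1r1b) to -4.49 (Dmbt1) on the log2 scale. Several marker lists moved with it. Its sum of 12 mucosal markers was 25061, against 38689 and 39294 in replicates 13 and 15, and its sum of 9 basal markers 18934, against 24522 and 26237. The basal keratin Krt14 was at 159 in replicate 14, against 1186 and 1285 in the others. Sums of 4 neutrophil markers (157, against 502 and 510), 10 smooth muscle markers (2443, against 4928 and 4138) and 7 seminal vesicle genes (205, against 5140 and 2008) were lower as well. The sum of 12 distal secretory genes was higher (316527, against 199200 and 211302). Sums of 10 luminal epithelial markers (142474, against 160308 and 156940) and 10 endothelial markers (6857, against 6764 and 7154) differed less. The part of this tissue content in the members' spread was not tested. Without replicate 14, limma called 6 members in the Ctnnb1 group, with Dmbt1 added.

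**Figure D3:**
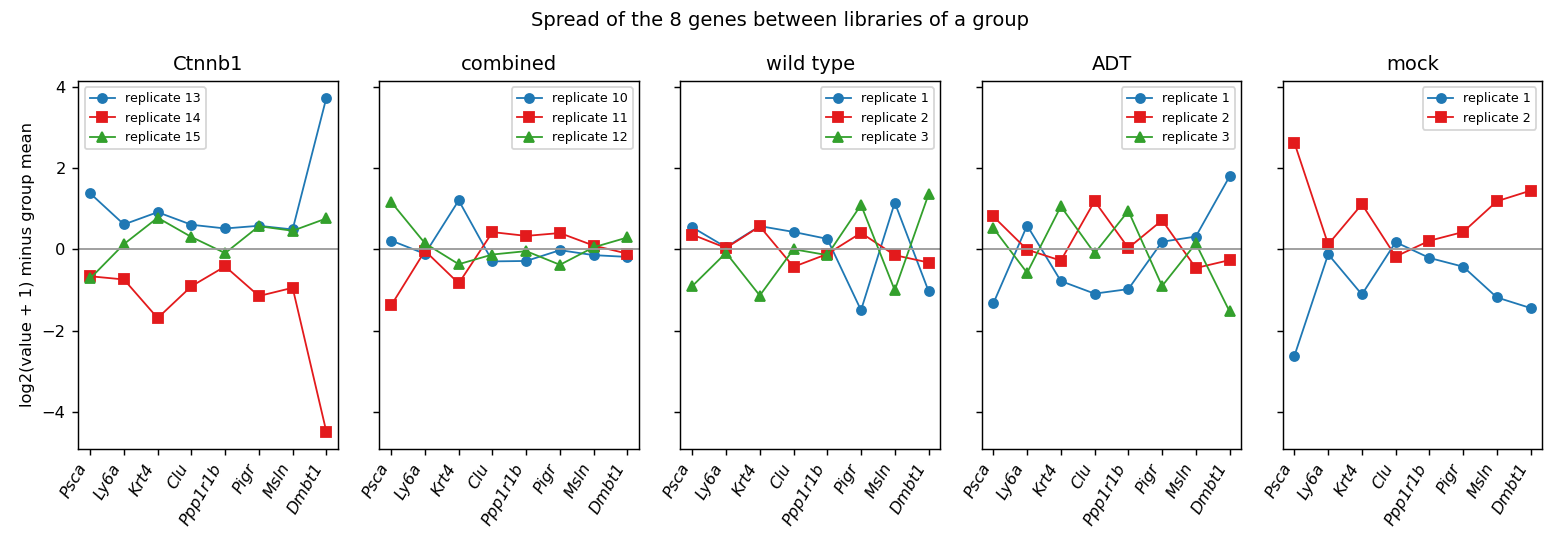
Deviation of log2(value + 1) of each gene from its group mean, with a line per library, for the Ctnnb1, combined, wild-type, ADT and mock groups. Ctnnb1 replicate 14 is lowest for 7 of 8 genes, reaching -4.49 for Dmbt1, and mock replicate 1 is lower than mock replicate 2 for 7 of 8.

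A list of 18 other proximal and progenitor-type luminal markers was set beside the members. In the Ctnnb1 group 8 were higher and 3 lower, with a median log2 change of 0.20, where the median of all genes was 0.00. In the combined group 8 were higher and 2 lower, with a median of 0.75 against -0.01 for all genes. Like the members, the list thus held genes that moved in both directions, and 8 of 18 is to be read against the 28.9% and 28.3% of all genes called higher, and the lower counts against 29.6% and 29.5%.

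Among those that rose, Cd44, the hyaluronan receptor, had log2 changes of 3.62 in the Ctnnb1 group and 3.94 in the combined group, and Runx1, a transcription factor of proximal luminal cells, of 2.43 and 2.75. Ly6d, a Ly6 protein of castration-resistant luminal progenitors, had log2 changes of 3.54 and 4.31 in these groups. Ltf, the secreted iron-binding protein lactoferrin, had 3.34 and 5.47.

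Cbr2, a carbonyl reductase, fell by 3.76 in the Ctnnb1 group (adjusted p 8.92e-04 in limma) and by 2.45 in the combined group (adjusted p 0.00731). Prom1 (CD133) was at 243, 85 and 984 in the Ctnnb1 group, 4568, 2716 and 1873 in the combined group and 7949, 9049 and 8922 in wild type. It was called in the Ctnnb1 group (log2 change -4.97, adjusted p 7.98e-04 in limma) and not in the combined group (-1.60, adjusted p 0.101).

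**Figure D4:**
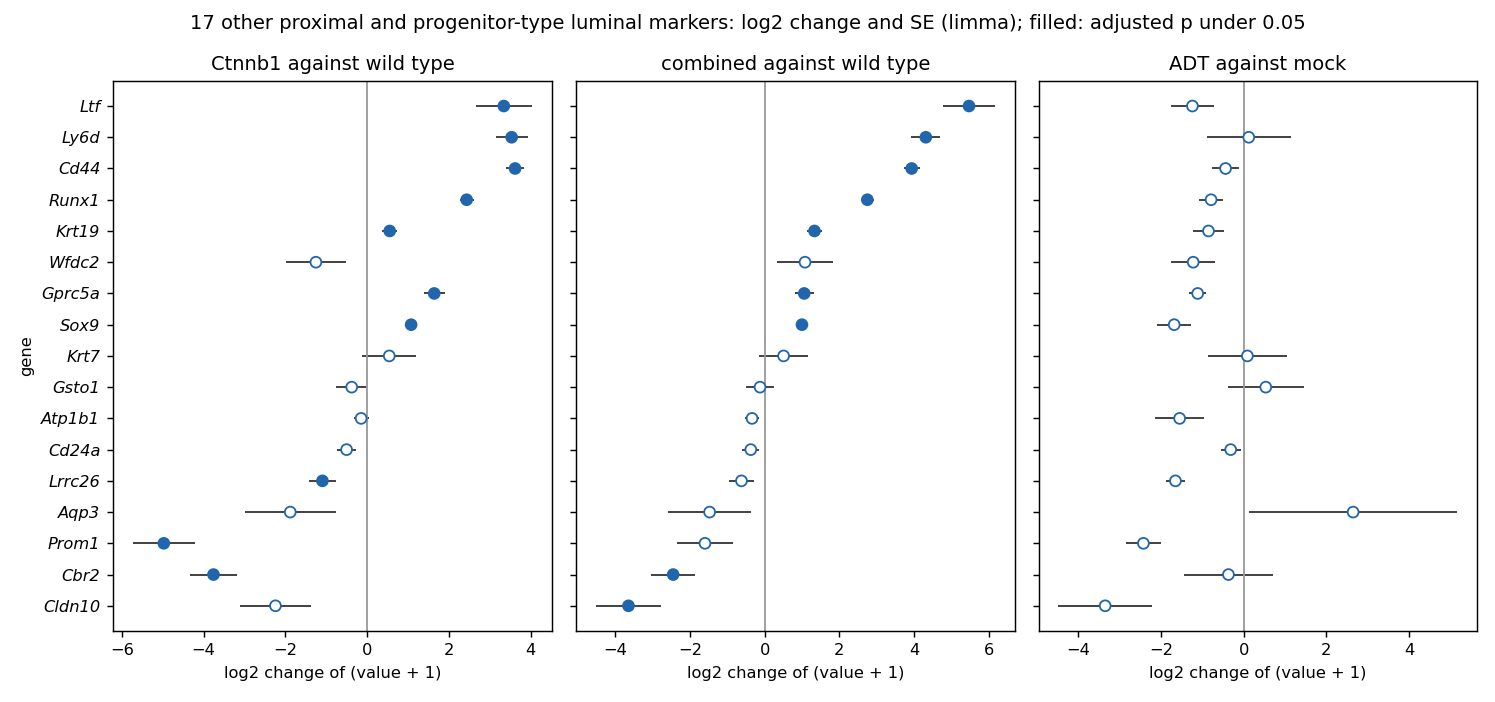
log2 change of (value + 1) with its SE (limma) for 17 of the 18 other proximal and progenitor-type luminal markers, in the Ctnnb1 group against wild type, the combined group against wild type and ADT against mock, sorted by the combined group and each panel with its own axis. Filled points are called at an adjusted p under 0.05; of those shown, Ltf, Ly6d, Cd44 and Runx1 are the 4 highest in the combined group and Cldn10 the lowest.

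Distal secretory luminal genes were mostly lower. The shares of all genes given above apply to this list and to the further lists in the genotype groups. Of 12, 10 were lower and 0 higher in the Ctnnb1 group (median log2 change -2.65), and 11 were lower and 0 higher in the combined group (median -4.63). With equal totals 1 of these genes was higher in the Ctnnb1 group. Sbp, a secreted spermine-binding protein, was at 8, 38 and 17 in the Ctnnb1 group, 124, 27 and 54 in the combined group and 532758, 416786 and 636035 in wild type. Hoxb13, a prostate homeobox factor, fell by 1.28 in the Ctnnb1 group (adjusted p 9.53e-04 in limma) and fell by 1.99 in the combined group (adjusted p 1.09e-04).

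Markers of the luminal epithelium as a whole moved in both directions, 3 of 10 higher and 2 lower in the Ctnnb1 group and 3 higher and 3 lower in the combined group. Their sums were 142474 to 160308 in the Ctnnb1 group, 114772 to 150021 in the combined group and 126729 to 141078 in wild type. All 10 smooth muscle markers were lower in both tumour groups, with sums of 2443 to 4928 in the Ctnnb1 group, 7823 to 23316 in the combined group and 162884 to 206259 in wild type. Seminal vesicle genes were present in wild type at sums of 479326 to 4638336, against 205 to 5140 in the Ctnnb1 group and 44682 to 213638 in the combined group. Urothelial markers were lower in sum as well, at 22571 to 27356 in the Ctnnb1 group, 15562 to 25435 in the combined group and 28249 to 32859 in wild type. Gata3 and Foxa1 made up much of each sum (11600 and 9009 of 32606 in wild-type replicate 1). Foxa1 was lower in both tumour groups (5909 to 7156) than in wild type (8363 to 10887). Gata3 was lower in the combined group only (5854 to 9177, wild type 10345 to 11600). Upk1b, a plaque protein, overlapped wild type (6652 to 7548) in the Ctnnb1 libraries (4953 to 8886) and the combined libraries (2692 to 8693). Sums without Gata3 and Foxa1 were not tested. Of 7 urothelial markers tested, 1 was higher and 2 lower in the Ctnnb1 group and 1 higher and 3 lower in the combined group. Upk1a, a urothelial plaque protein, was at 193, 167 and 125 in the Ctnnb1 group, 335, 175 and 234 in the combined group and 4277, 3385 and 2574 in wild type (adjusted p 1.91e-05 and 2.81e-05 in limma). Upk2, another plaque protein, stood above wild type in the Ctnnb1 group, at 725, 608 and 538 against 145, 137 and 183. In the combined group it was at 321, 110 and 625, overlapping wild type. Krt13, called higher in the combined group, is also on the urothelial list, and Foxa1 is on that and the luminal epithelial list. The part of smooth muscle, seminal vesicle and urothelium in the lower Psca and Ppp1r1b values was not tested.

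Mucosal defence genes, to which Pigr and Dmbt1 are related by function, included 6 of 12 that rose and 2 that fell in the Ctnnb1 group (median log2 change 1.04), and 7 that rose and 2 that fell in the combined group (median 2.84). Lcn2, which binds bacterial siderophores, was at 8220, 1607 and 7562 in the Ctnnb1 group, 12514, 12805 and 10551 in the combined group and 950, 294 and 663 in wild type. Slpi, an inhibitor of leukocyte protease, had log2 changes of 2.92 and 4.56 in these groups (adjusted p 8.46e-04 and 9.55e-05 in limma). Agr2, a protein disulfide isomerase of mucus-secreting cells, fell by 4.62 in the Ctnnb1 group and fell by 4.08 in the combined group (adjusted p 2.12e-05 and 2.89e-05 in limma).

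Macrophage markers moved with these genes, 7 of 9 higher in the Ctnnb1 group (sums 10639 to 20423) and 8 of 9 in the combined group (sums 13821 to 50639), against sums of 5067 to 5555 in wild type, and so did 3 and 4 of 4 neutrophil markers. Lyz2 belongs to both the mucosal and the macrophage list. None of these markers was at 0, and their part in the mucosal genes was not tested.

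In the Ly6 family, apart from Psca, Ly6a and Ly6d, 4 of 9 listed genes were higher and 1 lower in the Ctnnb1 group. In the combined group 4 of these were higher and 0 lower. Ly6d was counted with the proximal markers above. Ly6e was at 81712, 78857 and 70853 in the Ctnnb1 group, 72228, 72672 and 68010 in the combined group and 26645, 26542 and 23122 in wild type. Ly6c1, whose coding end is shown above, was at 2272, 753 and 1357 in the Ctnnb1 group, 2534, 2925 and 2655 in the combined group and 629, 675 and 692 in wild type, below Ly6a in every library. Plaur, the urokinase receptor, had log2 changes of 2.59 and 2.70 (adjusted p 8.15e-05 and 6.46e-05 in limma). Cd59a, an inhibitor of complement, fell by 2.75 in the Ctnnb1 group (adjusted p 0.00700) and was not called in the combined group (-1.52, adjusted p 0.0744).

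Across the 9 genotype libraries, the genes most like each member were ranked by Pearson's r of log2(value + 1) among 12466 genes, as a description, since the libraries share their groups and their scaling. Tubb5, Tagln2 and Nfkbie were most like Ly6a (r 0.99 each), and Tnfaip3, Nfkb2 and Efnb1 most like Clu (r 0.99 each). Sgol2, Bub1 and Trim59 were most like Msln (r 0.99 each). These members each had many close genes, with 277 for Ly6a, 357 for Clu and 389 for Msln at r over 0.95.

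Dmbt1 was most like Ly6c1 (r 0.97), Atp10b and Pglyrp1 (r 0.96 each). Krt4 had 0 genes above 0.95 and was most like Gsdmc2, Clca3 (r 0.94 each) and Gsdmc3 (r 0.93), all of which were lowest in Ctnnb1 replicate 14 within that group. Pigr also had 0 such genes, with Gtf3c5 and Slc31a1 at 0.91 each. Psca was most like Brk1 (r 0.97), Nploc4 (0.96) and Rfx2 (0.95), and Ppp1r1b most like Tyro3 (0.97), Rbpms (0.96) and Fam131a (0.95).

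ADT was compared with mock treatment in the inducible model to ask how the markers stood when androgen was withdrawn from tumours of the combined genotype. Ly6a, Clu, Ppp1r1b, Pigr and Dmbt1 were lower in every ADT library than in either mock library, and Psca, Krt4 and Msln overlapped. limma called 0 of 8 members, where it called 2 of 23289 genes, or 0.00859%. Counted in either direction, 5 of 8 members had an unadjusted p under 0.05 in limma, beside 16.2% of all genes. All 5 were lower. The groups did not overlap for 33.2% of all genes, 16.8% lower in ADT. Mock replicate 1 was below mock replicate 2 for 7 of 8 members, all but Clu.

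The mock libraries also stood apart in marker lists. Mock replicate 1 had lower sums than replicate 2 of 9 basal markers (22289 against 49186), 9 urothelial markers (13605 against 19790) and 7 seminal vesicle genes (4772 against 283006). Krt14 was at 372 in mock replicate 1 and 5391 in mock replicate 2. Mock replicate 1 had higher sums of 10 fibroblast and matrix markers (629582 against 127534), 9 macrophage markers (101853 against 31029) and 10 endothelial markers (34623 against 13896). The sums of 10 luminal epithelial markers were closer, at 107393 and 127280. The basal, urothelial and seminal vesicle sums stood the same way as the 7 members lower in mock replicate 1, Psca, Krt4 and Msln among them. The fibroblast, macrophage and endothelial sums stood the other way. ADT replicate 1 stood apart from the other ADT libraries as well. Its fibroblast and matrix sum was 437468, against 113144 and 79424 in ADT replicates 2 and 3. Its basal sum was 45189, against 64923 and 65705, and its seminal vesicle sum 3, against 5792 and 12514. It was the lowest ADT library for Psca, Krt4, Clu and Ppp1r1b and the highest for Ly6a, Msln and Dmbt1. The part of these contents in the results under ADT was not tested.

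Pigr was at 2499, 3606 and 1174 with ADT and at 20938 and 37826 with mock treatment. The highest ADT library was well under the lowest mock library. The log2 change was -3.68 (95% interval -5.15 to -2.21, unadjusted p 0.00152 and adjusted p 0.121 in limma), and 1.12% of genes had a larger absolute change. Igj stood the same way, at 1634, 1466 and 628 with ADT and 5185 and 6943 with mock treatment (log2 change -2.39, adjusted p 0.152 in limma).

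Dmbt1 was at 749, 179 and 74 with ADT and at 1104 and 8193 with mock treatment, so the groups lay apart by a margin smaller than the spread of either. Its log2 change was -3.80 (95% interval -7.26 to -0.34, adjusted p 0.276 in limma). Sftpd, which binds it, was at 15, 75 and 23 with ADT and 192 and 779 with mock treatment.

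Clu was at 7926, 38445 and 15781 with ADT and at 137341 and 107504 with mock treatment. Its log2 change was -2.85 (95% interval -4.67 to -1.03, adjusted p 0.187 in limma). The 3 ADT libraries differed among themselves more than the mock libraries did. Lrp2 was at 1322, 768 and 623 with ADT and 3707 and 4135 with mock treatment. Lrp8, a related receptor, stood the other way, at 376, 407 and 873 with ADT and 185 and 279 with mock treatment.

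Ly6a was at 9313, 6170 and 4159 with ADT and at 16726 and 19782 with mock treatment, a log2 change of -1.55 (95% interval -2.51 to -0.59, adjusted p 0.186 in limma). Ppp1r1b was at 127, 257 and 485 with ADT and at 947 and 1270 with mock treatment, a log2 change of -2.12 (95% interval -3.71 to -0.54, adjusted p 0.213 in limma). For both genes all ADT libraries lay under the mock libraries.

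Psca was at 720, 3170 and 2597 with ADT and at 68 and 2609 with mock treatment. Its log2 change of 2.09 (95% interval -2.37 to 6.56, adjusted p 0.590 in limma) turned to -0.53 without mock replicate 1. Msln was at 6047, 3535 and 5376 with ADT and at 1712 and 8839 with mock treatment. Its log2 change was 0.32 (95% interval -1.64 to 2.28, adjusted p 0.873 in limma), and -0.86 without mock replicate 1. For both genes the mock libraries stood on opposite sides of most or all ADT libraries. Krt4 was at 2322, 3291 and 8303 with ADT and at 680 and 3176 with mock treatment (log2 change 1.44, 95% interval -0.85 to 3.73, adjusted p 0.489 in limma).

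Among the other 18 proximal and progenitor-type markers, 0 were called and 10 were lower in every ADT library than in both mock libraries. The median log2 change of the 18 was -0.87 (all genes -0.02). Of all genes, 16.8% were lower without overlap, a share that also applies to the lower counts of the lists below. Lrrc26, a subunit of potassium channels, was at 351, 472 and 531 with ADT and 1347 and 1456 with mock treatment, and Prom1 was at 616, 1498 and 1349 with ADT and 5666 and 5925 with mock treatment. Of 12 distal secretory genes 0 were called and 11 were lower in every ADT library (median -5.40).

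Of 14 mucosal genes 0 were called and 7 were lower in every ADT library (median -1.82). C3, the central complement component, was at 8214, 8024 and 8323 with ADT and 39627 and 22352 with mock treatment. Of 13 listed Ly6 family genes, apart from Psca, Ly6a and Ly6d, 0 were called. In every ADT library 4 of them were higher and 2 lower than in both mock libraries (median 0.31).

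Luminal epithelial markers moved with these values. Of 10, 0 were called and 8 were lower in every ADT library, with sums of 51291 to 68126 with ADT and 107393 to 127280 with mock treatment. Krt8 was at 20239, 18478 and 19814 with ADT and 30841 and 35305 with mock treatment, and Cldn3, a tight junction protein, at 652, 690 and 424 with ADT and 3629 and 3410 with mock treatment. Basal markers had sums of 45189 to 65705 with ADT and 22289 to 49186 with mock treatment, and endothelial markers 11772 to 12145 with ADT and 13896 to 34623 with mock treatment. No marker of these 3 lists was at 0. Fibroblast and matrix markers had sums of 79424 to 437468 with ADT and 127534 to 629582 with mock treatment. T and NK cell markers had sums of 353 to 681 with ADT and 644 to 931 with mock treatment. The part of these cells in the lower values of Pigr, Clu, Ly6a, Ppp1r1b and Dmbt1 was not tested.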

How the data were processed

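Total RNA (integrity number over 7.3) was sequenced at BGI in pairs of 90-nt reads to 6 Gb or more, per the labels' protocols. Tools named in the submitters' processing notes are DESeq2 1.14.1, R 3.2.3, HTSeq 0.6.0, TopHat2 2.1.0, Bowtie2 2.2.6.0 and FastQC 0.11.4, and the build named is GRCm38.p3; roles and settings are not given in the sources used here. The values the authors deposited are scores: whole numbers that, judged from the values, are gene counts divided by size factors of the libraries and then rounded (median ratios between libraries 0.981 to 1.01). Sequencing depth is therefore unknown, and no counting interval is given.

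The files came in sets of 15195 features (genotype groups) and 42847 features (inducible model). Features with no Entrez number (631), with an Entrez number on several features (270) or repeating a gene (396 and 3668) were left out. In the genotype set the lowest mean of a gene was 15.6, so low genes had been removed before deposit. A further genotype group, comparisons resting on the added engineered change by itself, and certain genes covered by the naming rule are not reported here.

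Values were taken as log2(value + 1). Genes reaching 1 in at least 3 genotype libraries or 2 libraries of the inducible model were tested, and all 8 members passed. The 9 genotype libraries were fitted together and the 5 ADT and mock libraries alone, with group as the only factor, using limma 3.58.1 with a trend in R 4.3.3; the tests were tried on simulated data first. The design had named a count test in case of raw counts, which the files do not hold. Tables and figures used Python 3.11.15, pandas 2.3.3 and matplotlib 3.10.9. The members and lists were chosen with earlier results of these data known. Named genes are all members, up to 4 per list by smallest p, related receptors, ligands and family members, and the 3 genes most like each member; Ltf, Cbr2 and Cldn10 were named after their values were seen. Positions and transcripts are from GENCODE M21, the promoter from RefSeq.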

Additional observations from a re-analysis of the deposited data

How the results depend on the processing

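The number of members called was 5 in the Ctnnb1 group and 5 in the combined group, and 4 to 6 in each over 18 alternatives. It was 0 under ADT in all 13. The alternatives changed the pseudocount, the filter, the scaling, the prior variance or the libraries fitted. The direction of a member turned in 5 cases, all of uncalled changes: Krt4 in the combined group with equal totals (0.16) and without combined replicate 11 (0.062), Pigr in the combined group without wild-type replicate 1 (-0.17), and Psca (-0.53) and Msln (-0.86) under ADT without mock replicate 1. Leaving out each library in turn gave log2 changes of -0.96 to 0.062 for Krt4 and -0.17 to 1.13 for Pigr in the combined group, and of -0.53 to 4.71 for Psca and -0.86 to 1.51 for Msln under ADT. The cause was not tested.

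The 2 genes called of all genes under ADT became 5 with a pseudocount of 10, 172 with no filter, 60 with a mean of at least 50, 44 with equal totals, 29 with a robust prior and 0 without a trend. They were 0 without any single library, where 2334 to 3979 genes had an unadjusted p under 0.05. The labels number mock and ADT samples 1 and 2 alike, and deviations from the group mean correlated at 0.223 and 0.117 for these numbers. With only 2 pairs they share only a number. With the replicate block limma called 0 members and 0 genes, with 3206 genes at an unadjusted p under 0.05. Scaled values keep no depth, so counting error cannot be separated from the spread between samples.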
